A study of Mus musculus with 6 samples.

Results

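Genes of 1 proteolytic system were followed in mouse haematopoietic stem cells sorted by the chemokine receptor CCR2: 6 cysteine cathepsins (Ctsl, Ctsb, Ctsc, Ctsh, Ctss, Ctsz), the cystatins Cst3 and Cstb, and the Ctla2 genes Ctla2a and Ctla2b. They were chosen by symbol, 10 of the 22180 genes with a probe set of their own, and all 10 were measured. They were picked with their differences between the groups of this series already known. The differences below are therefore descriptions without a test. The arrays held 3 pools of CCR2-positive and 3 pools of CCR2-negative stem cells from C57BL/6J mice. The labels name no genetic change, treatment, sex or age. Each pool came from the marrow of 20 mice, so an array averages many animals, and 5 ng of its RNA was amplified before hybridisation. The sources used here do not give the other surface markers of the sort. The values are log2 levels from RMA, a method that corrects background, aligns the arrays and summarises each gene's probes. Because probes differ, single genes are not ranked by level, and a gene's level is used only to say whether it lay above or below the median or the 75th percentile of all genes.

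Cysteine cathepsins are papain-like proteases of the lysosome. They are made as inactive precursors in which a propeptide covers the active site until the precursor is cleaved. Cystatins are small proteins that block the mature enzymes, and the Ctla2 proteins resemble the propeptide of cathepsin L on its own; in the mouse, Ctla2a protein inhibits cathepsin L. In blood cells these enzymes degrade protein, trim the invariant chain of class II molecules and activate the serine proteases of granules.

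The promoters of Ctla2b and Ctla2a are shown because both genes were lower in the CCR2-positive pools, and that of Ctss because its level, of the 10, differed most among pools of 1 group. Each sequence runs from 250 bases before the RefSeq start site to 50 bases after it (build GRCm38.p6), read along the gene. RefSeq windows were matched for 7 of the 10 genes. Those of Ctla2b (chr13:60897398-60897697) and Ctla2a (chr13:60936576-60936875, the more upstream of its 2 windows) lie on the minus strand, and that of Ctss (chr3:95526536-95526835) on the plus strand.
Ctla2b: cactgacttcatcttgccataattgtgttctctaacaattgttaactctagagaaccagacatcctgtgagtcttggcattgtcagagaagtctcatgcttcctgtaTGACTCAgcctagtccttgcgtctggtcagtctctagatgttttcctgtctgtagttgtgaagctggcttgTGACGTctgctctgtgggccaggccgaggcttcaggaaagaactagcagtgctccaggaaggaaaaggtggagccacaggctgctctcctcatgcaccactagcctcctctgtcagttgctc
Ctla2a: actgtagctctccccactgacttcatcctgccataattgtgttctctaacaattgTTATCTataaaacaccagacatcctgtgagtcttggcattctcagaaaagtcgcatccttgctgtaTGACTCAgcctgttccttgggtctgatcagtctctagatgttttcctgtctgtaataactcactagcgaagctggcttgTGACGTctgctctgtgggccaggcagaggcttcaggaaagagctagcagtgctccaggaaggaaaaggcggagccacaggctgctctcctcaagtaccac
Ctss: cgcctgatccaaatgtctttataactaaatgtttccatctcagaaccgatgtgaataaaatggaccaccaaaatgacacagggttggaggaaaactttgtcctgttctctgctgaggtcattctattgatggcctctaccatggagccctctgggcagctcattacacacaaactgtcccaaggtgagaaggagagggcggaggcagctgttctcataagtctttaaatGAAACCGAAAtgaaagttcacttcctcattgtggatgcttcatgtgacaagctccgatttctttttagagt
Capitals mark matches on either strand to 5 motifs: the AP-1 site TGACTCA, the CRE half-site TGACGT, the interferon response motif (GAAA on both sides of any 2 bases), the E-box CACGTG and the GATA site AGATAA. Aligned, the windows of Ctla2b and Ctla2a were identical at 255 of 278 bases, or 91.7%. Both held 1 AP-1 site and 1 CRE half-site, motifs found in 5.20% and 7.51% of 32851 promoter windows. The Ctla2a window shown also held a GATA site, present in 11.2% of windows, which the other window of Ctla2a did not hold. The Ctss window held 1 interferon response motif, present in 3.44% of windows. A match is a string of letters, and binding was not measured.

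Of the 10 genes, the 4 inhibitors averaged lower in the CCR2-positive pools, Cstb with overlapping groups, and the enzymes lay on both sides of 0. All 4 inhibitors had a negative difference (CCR2-positive minus CCR2-negative), with a median of -0.43 on the log2 scale. Of the 6 cathepsins, 3 were lower and 3 higher, with a median of -0.04. The contrast is stated for these 10 genes only. Of 17 other measured cystatins, mostly dim, 12 were higher and 5 lower, and the 4 other cysteine cathepsins all had differences below 0. Over the 10 genes, 7 were lower and 3 higher, with a median of -0.17, where all 22180 genes had a median of 0.03. Level bears on this: 8 of the 10 genes were among the 5545 brightest genes (a mean log2 level at or above the 75th percentile of 7.11), and of these 61.7% were lower in the CCR2-positive pools, against 44.0% of all genes.

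Ctla2b had the largest difference of the 10. Its log2 values were 7.39, 7.0 and 7.12 in CCR2-positive replicates 1 to 3, against 8.67, 9.05 and 8.33 in CCR2-negative replicates 1 to 3. The groups were far apart, with the lowest CCR2-negative pool well above the highest CCR2-positive pool. The means were 7.17 ± 0.20 in CCR2-positive and 8.68 ± 0.36 in CCR2-negative pools (SD, n = 3 each). Their difference was -1.51 ± 0.19 (SE), or 2.85-fold lower. With 1 pool left out at a time it ran from -1.69 to -1.33. In bulk samples fewer cells that express a gene and less RNA per cell cannot be told apart.

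Ctla2a was lower by less. It had log2 values of 9.86, 9.55 and 9.72 in CCR2-positive pools, against 10.17, 10.43 and 10.20 in CCR2-negative pools. These groups did not overlap either. The difference was -0.56 ± 0.12 (SE), or 1.47-fold lower. For both genes CCR2-positive replicate 2 was the lowest pool and CCR2-negative replicate 2 the highest. The genes are close copies, so probes of 1 can in principle bind transcripts of the other. The platform annotation gives each probe set a single gene, and probe sequences were not used here.

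Cst3, which encodes the secreted inhibitor cystatin C, was measured by 2 probe sets. The brighter had log2 values of 10.41, 10.19 and 10.13 in CCR2-positive pools, against 10.55, 10.61 and 10.50 in CCR2-negative pools. The groups lay apart by a small margin, with a difference of -0.31 ± 0.11 (SE), or 1.24-fold lower. The other probe set gave 9.54, 9.30 and 9.42 in CCR2-positive pools, against 9.71, 9.72 and 9.54 in CCR2-negative pools. Its difference was -0.23 ± 0.11 (SE), in the same direction, with the nearest pools almost level. Cstb, which encodes the intracellular inhibitor stefin B, had log2 values of 8.90, 8.51 and 8.47 in CCR2-positive pools, against 8.74, 8.92 and 8.65 in CCR2-negative pools. The groups overlapped, with CCR2-positive replicate 1 inside the range of the CCR2-negative pools, and the difference was -0.15 ± 0.14 (SE).

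**Figure D1:**
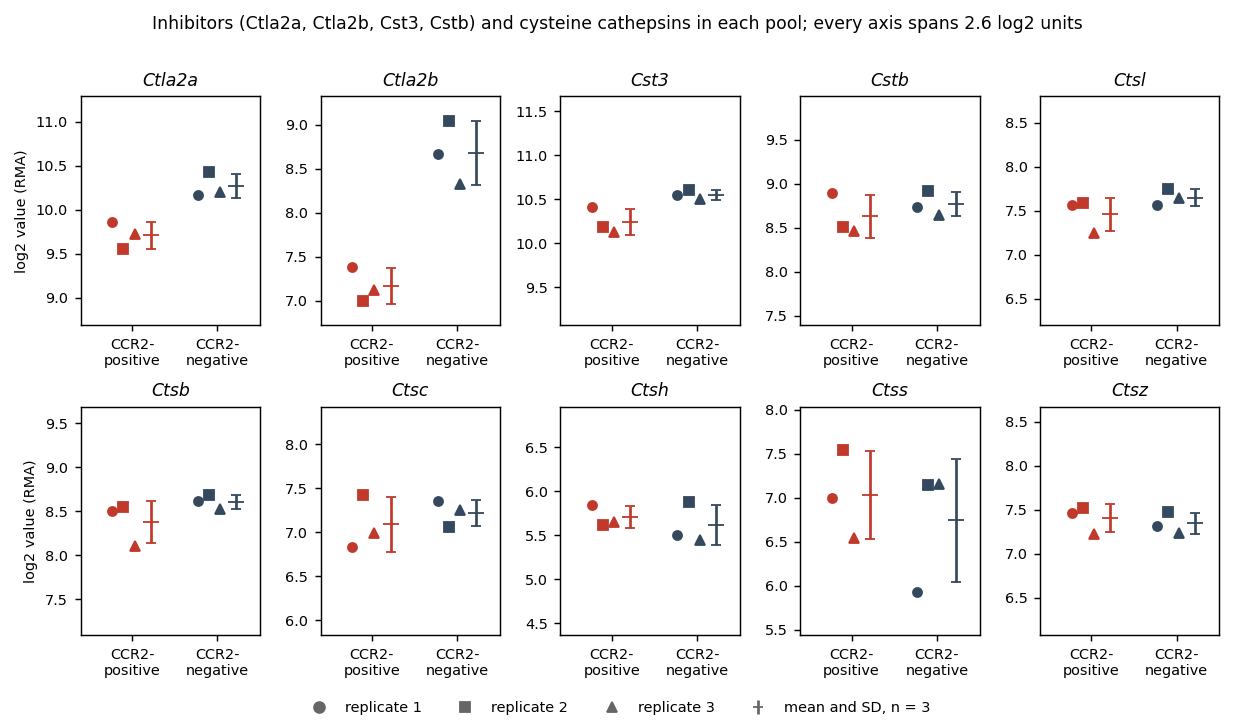
Log2 RMA value (vertical axis) of each of the 10 genes in the 3 CCR2-positive pools (left, red) and the 3 CCR2-negative pools (right, dark), 1 marker shape per replicate number, with mean and SD beside them. Ctla2b, Ctla2a and Cst3 show no overlap between the groups; Ctss shows the widest spread within both.

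Ctsl and Ctsb, whose enzymes cut inside proteins, had small negative differences. Ctsl, whose propeptide the Ctla2 proteins resemble, had log2 values of 7.56, 7.59 and 7.25 in CCR2-positive pools, against 7.56, 7.75 and 7.64 in CCR2-negative pools. Only CCR2-positive replicate 3 lay below the CCR2-negative range by more than a trace, and the difference was -0.19 ± 0.12 (SE). Ctsb had 8.5, 8.55 and 8.10 in CCR2-positive pools, against 8.62, 8.68 and 8.53 in CCR2-negative pools. Here too CCR2-positive replicate 3 stood apart as the low pool, and the difference was -0.23 ± 0.14 (SE). Without that pool the differences were -0.08 for Ctsl and -0.09 for Ctsb.

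The exopeptidases differed by less than their spread. Ctsc encodes dipeptidyl peptidase I, which activates granule serine proteases by removing a dipeptide from their ends. Its log2 values were 6.83, 7.43 and 6.99 in CCR2-positive pools, against 7.36, 7.06 and 7.25 in CCR2-negative pools. CCR2-positive pools held both its highest and its lowest value, and the difference was -0.14 ± 0.17 (SE). Ctsh, an aminopeptidase gene and the single member under the median level of all genes, had 5.85, 5.62 and 5.65 in CCR2-positive pools, against 5.51, 5.88 and 5.45 in CCR2-negative pools. The groups overlapped, with a difference of 0.09 ± 0.14 (SE). Ctsz, a carboxypeptidase gene, had 7.47, 7.52 and 7.23 in CCR2-positive pools, against 7.32, 7.48 and 7.24 in CCR2-negative pools, and its difference was 0.06 ± 0.12 (SE).

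Ctss, which encodes the cathepsin that trims the invariant chain in antigen-presenting cells, varied most. Its log2 values were 7.0, 7.54 and 6.54 in CCR2-positive pools, against 5.93, 7.14 and 7.16 in CCR2-negative pools. CCR2-negative replicate 1 was far below the other pools, and the rest of the groups overlapped. Its SD was 0.50 among CCR2-positive and 0.70 among CCR2-negative pools, and its SD within groups lay at percentile 99.4 of all genes. The difference was 0.29 ± 0.35 (SE), and without CCR2-negative replicate 1 it was -0.12, so its direction rested on that pool. Without CCR2-positive replicate 2 it was 0.03, and without CCR2-positive replicate 3 it was 0.53. The SD of the other members within groups was between 0.11 (Cst3) and 0.29 (Ctla2b), where the median over all genes was 0.155.

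In the limma fit over all 22180 genes, 0.0% passed an adjusted p of 0.05, the 10 genes included. At an unadjusted p under 0.05 limma had 2716 genes (12.2%), of which 1467 were lower (6.61%) and 1249 higher (5.63%), and 3 of the 10 genes were among the lower ones. Ctla2b, Ctla2a and Cst3, 3 of the 10, were lower in every CCR2-positive pool than in any CCR2-negative pool. Over all genes 7.88% were lower and 10.8% higher without overlap, and among the brightest 5545 genes 13.6% were lower without overlap. Since the genes were chosen with this comparison known, nothing is read from these counts.

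Single pools recurred among the extremes. CCR2-negative replicate 2 held the highest value of 7 of the 10 genes, and of 25.4% of the 5545 brightest genes. CCR2-positive replicate 3 held the lowest value of 5 of the 10, and of 39.7% of those brightest genes. The 75th percentile of that array was 6.87, against 6.91 to 6.99 on the other arrays. After a second quantile normalization, CCR2-negative replicate 2 was highest for 6 of the 10 genes and CCR2-positive replicate 3 lowest for 2. Repeating this count on those values was chosen after seeing the data. The part of the arrays' distributions in the small differences was not tested further.

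**Figure D2:**
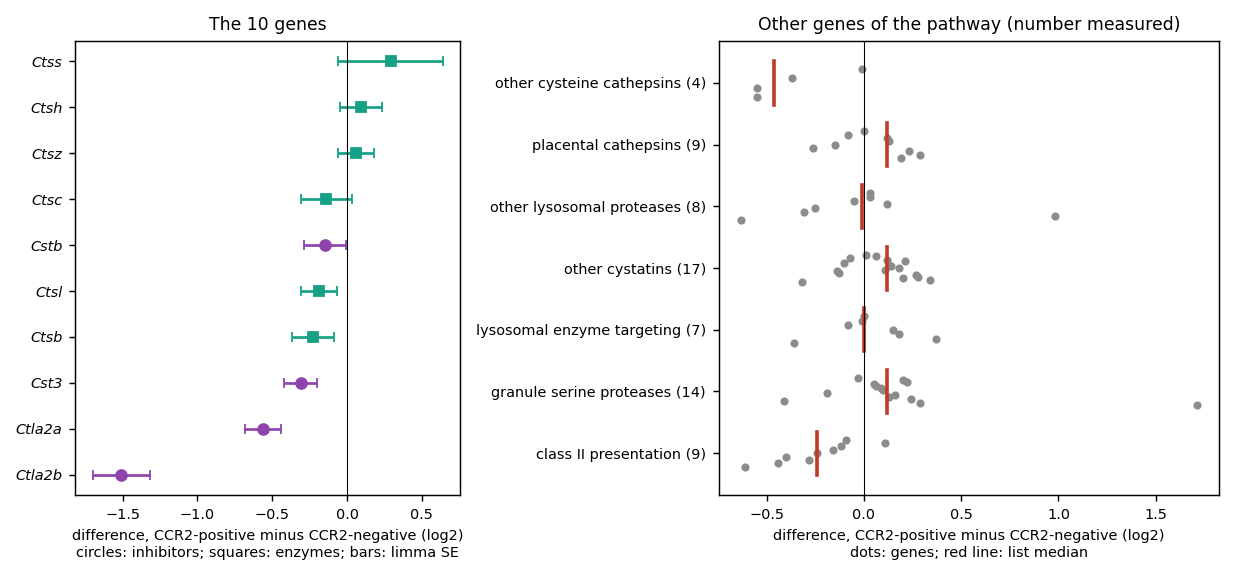
Difference in log2 value, CCR2-positive minus CCR2-negative (horizontal axes), for the 10 genes with limma standard errors (left; circles inhibitors, squares enzymes) and for single genes of 7 lists of the same pathway (right; dots genes, red lines list medians). Ctla2b at -1.51 stands farthest from 0 among the 10, and the list medians run from -0.46 to 0.12.

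Other genes of the pathway were taken from 7 lists with 68 measured genes. None passed the adjusted threshold of limma in either direction. At an unadjusted p under 0.05, 5 of the 68 were higher and 7 lower, beside 5.63% higher and 6.61% lower over all genes. Without overlap of the groups 5 of the 68 were higher and 8 lower, beside 10.8% and 7.88% of all genes. Direction depended on level: 44.0% of all genes were lower, but 56.1% of the 11090 genes at or above the median level. Genes under the median level were therefore more often higher, which bears on the dim lists below.

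The 4 other cysteine cathepsins were all lower, with a median of -0.46. Ctso, which encodes cathepsin O, had log2 values of 7.47, 6.83 and 7.04 in CCR2-positive pools, against 7.64, 7.74 and 7.60 in CCR2-negative pools. The groups did not overlap, with a difference of -0.55 ± 0.16 (SE, limma adjusted p = 0.259). Ctsf, which encodes cathepsin F, differed by -0.55 ± 0.24 and Ctsw, the cathepsin of cytotoxic lymphocytes, by -0.37 ± 0.20, both with overlap of the groups. Ctsk, the collagen-degrading cathepsin of osteoclasts, made up the list and was close to level, with a difference of -0.01 ± 0.12. Without CCR2-positive replicate 2 the list median was -0.29.

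Among 8 other lysosomal and endosomal proteases, 4 were higher and 4 lower, with a median of -0.01, and the largest differences ran in opposite directions. Napsa, which encodes the aspartic protease napsin A, had log2 values of 7.72, 7.78 and 7.56 in CCR2-positive pools, against 8.46, 8.30 and 8.20 in CCR2-negative pools. The pools lay apart, with a difference of -0.63 ± 0.12 (SE, limma adjusted p = 0.177). Ctse, which encodes the aspartic protease cathepsin E, had 10.17, 10.46 and 10.08 in CCR2-positive pools, against 8.62, 9.58 and 9.58 in CCR2-negative pools. Every CCR2-positive pool was above every CCR2-negative pool, with a difference of 0.98 ± 0.25 (SE, limma adjusted p = 0.221). Scpep1, a serine carboxypeptidase gene, differed by -0.31 ± 0.17. Erythroid markers, given below, were higher in the same pools. Their part in the Ctse difference was not tested.

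Of 17 measured cystatins beyond Cst3 and Cstb, 12 were higher and 5 lower, with a median of 0.12. The list had 21 symbols, and 1 measured member reached the median level of all genes. Of all 22180 genes 12422 were higher, and dim genes more often than bright ones, so nothing is read from the count. Stfa3, a stefin A gene, averaged 3.16 in CCR2-positive and 3.48 in CCR2-negative pools, and Kng2, a kininogen gene, averaged 4.46 in CCR2-positive and 4.13 in CCR2-negative pools. No detection calls were given, so signal over background is unknown for these genes. Without CCR2-positive replicate 3 the list median was 0.03.

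The serine proteases that Ctsc activates, and their kin, were higher in 11 of 14 cases, with a median of 0.12. Of the 14, 6 reached the median level of all genes, and dimmer genes were more often higher over all genes. Mcpt8, the basophil protease, averaged 7.94 ± 1.72 in CCR2-positive and 6.22 ± 0.29 in CCR2-negative pools (SD, n = 3 each). Its difference was 1.71 ± 0.70 (SE, limma adjusted p = 0.375), and the groups overlapped. Its log2 values were 5.96, 8.76 and 9.09 in CCR2-positive pools, against 5.89, 6.41 and 6.36 in CCR2-negative pools. Without CCR2-positive replicate 1, Mcpt8 and Gca were the 2 genes past the limma adjusted threshold, Mcpt8 at 2.70 (limma adjusted p = 0.0222). The pool left out was the CCR2-positive pool that lay within the CCR2-negative range, so nothing is read from that pass. Gzmb, which encodes granzyme B, differed by 0.29 ± 0.12 and Prss57, a neutrophil serine protease gene, by -0.41 ± 0.20.

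Class II genes, whose products meet the cathepsins in endosomes, were lower in 8 of 9 measured cases, with a median of -0.24. Of all genes 44.0% were lower. H2-Aa, the class II alpha chain gene, averaged 5.64 ± 0.08 in CCR2-positive and 6.25 ± 0.40 in CCR2-negative pools (SD, n = 3 each), a difference of -0.61 ± 0.19 (SE). H2-DMa, which helps load peptides, differed by -0.44 ± 0.14 and H2-DMb2 by -0.28 ± 0.11. All 3, named for the smallest p of the list, had pools that did not overlap, and so did H2-Ob. Over all genes 7.88% were lower without overlap, and the smallest limma adjusted p of the list was 0.274. The invariant chain gene Cd74 was not analysed here. The list median was -0.13 without CCR2-positive replicate 2.

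The 7 genes listed for the targeting of enzymes to the lysosome had a median of 0.00, with 3 higher and 4 lower. Sort1, which encodes the sorting receptor sortilin, differed by -0.36 ± 0.14, Psap, the precursor gene of the saposins, by 0.37 ± 0.16 and Igf2r, a mannose 6-phosphate receptor gene, by 0.18 ± 0.13. The groups overlapped for each of them.

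On the mouse map Ctla2b and Ctla2a lie on chromosome 13 among cathepsins that are mainly known from placenta. Ctsl lies on that chromosome too, outside this run of genes. The 9 protein-coding genes beside and between the pair differed by -0.26 to 0.23 on the log2 scale. Tpbpb, a trophoblast gene that lies between Ctla2b and Ctla2a, averaged 3.71 ± 0.35 in CCR2-positive and 3.67 ± 0.14 in CCR2-negative pools (SD, n = 3 each). Ctsll3, another cathepsin L relative, averaged 5.30 ± 0.26 in CCR2-positive and 5.57 ± 0.30 in CCR2-negative pools (SD, n = 3 each). None of the 9 had an unadjusted p under 0.05 in limma, none had groups apart, and all but Dapk1, a kinase gene, averaged under the median level of all genes. The 9 placental cathepsins fixed as a list had a median of 0.12, and all were under the median level of all genes. Cts3 had the smallest limma p of that list, with a difference of 0.19 ± 0.11 (limma adjusted p = 0.517).

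**Figure D3:**
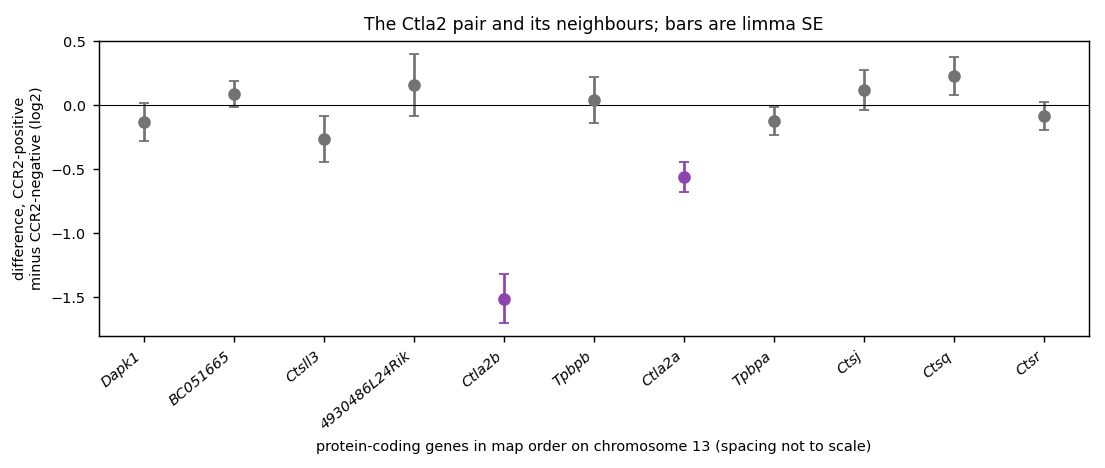
Difference in log2 value, CCR2-positive minus CCR2-negative (vertical axis), with limma standard errors, for Ctla2b, Ctla2a (purple) and the 9 nearest protein-coding genes (grey) in RefSeq map order. The pair lies at -1.51 and -0.56 while the 9 neighbours lie between -0.26 and 0.23.

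Genes with the profile most like that of each of 3 members were found by the root mean square distance between log2 values centred over the 6 arrays. For Ctla2b they were Cyp4v3, a cytochrome P450 gene (distance 0.195), Neurl3, a ubiquitin ligase gene (0.265), Il18, which encodes interleukin 18 (0.278), and Rnf122, a RING finger gene (0.320). The median distance of all genes was 0.819. For Ctla2a they were Fam214a (0.0423), the lipoprotein receptor gene Vldlr (0.0433), Trim30b (0.0564) and the mitochondrial carrier gene Slc25a24 (0.0603), with a median of 0.349. For Ctss they were the formin gene Daam1 (0.183), Ubash3a (0.185), Asb17 (0.191) and Acss1 (0.193), with a median of 0.539. The difference between the groups is part of this likeness for the first 2 members.

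Markers of the labelled cells and of other marrow cells were read beside these values. All 9 measured stem cell markers were at or above the median level of all genes, while Ly6a was not analysed here. Kit was at 9.67 to 9.81 in CCR2-positive and 9.84 to 10.25 in CCR2-negative pools. RMA values have no 0 and no detection calls were given, so no marker can be called absent. Ccr2 itself averaged 6.70 ± 0.47 in CCR2-positive and 5.91 ± 0.32 in CCR2-negative pools (SD, n = 3 each), with overlap.

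Stem cell markers differed in the same direction as the Ctla2 genes. All 9 were lower, with a median of -0.47, and their mean ran from 7.12 to 7.39 in CCR2-positive and from 7.67 to 8.0 in CCR2-negative pools. Of all genes 44.0% were lower, and of those at or above the median level 56.1%. Tek differed by -0.82 ± 0.16, Hoxb5 by -0.47 ± 0.11 and Hlf by -0.66 ± 0.17. The lowest pool was CCR2-positive replicate 2 for the list mean as for both Ctla2 genes. The highest was CCR2-negative replicate 1 for the markers and CCR2-negative replicate 2 for the Ctla2 genes. Of 7 endothelial and stromal markers 5 were lower, by a median of -0.06 for the list (-0.16 without CCR2-positive replicate 3), with a mean of 5.43 to 5.69 in CCR2-positive and 5.72 to 5.76 in CCR2-negative pools, Emcn by -0.92 ± 0.20. Its member Cxcl12 differed by 0.26 ± 0.11, with the groups apart in the other direction. The part of either list in the Ctla2 values was not tested.

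Monocyte, neutrophil, resident macrophage and erythroid markers were mostly higher in the CCR2-positive pools, where the 4 inhibitors of the 10 genes averaged lower. Over all genes 12422 of 22180 were higher, and 4872 of the 11090 at or above the median level. Genes under the median level were therefore more often higher than brighter ones. Of 13 monocyte markers 11 were higher, with a mean of 6.41 to 6.78 in CCR2-positive and 6.20 to 6.40 in CCR2-negative pools. Lgals3 differed by 0.50 ± 0.11, F13a1 by 0.66 ± 0.18 and Csf1r by 0.35 ± 0.13. All 11 neutrophil markers were higher, with a mean of 5.22 to 5.84 in CCR2-positive and 4.92 to 5.36 in CCR2-negative pools, Lcn2 by 0.58 ± 0.14. Resident macrophage markers were higher in 9 of 10 cases by a median of 0.06 (0.15 without CCR2-positive replicate 1), with a mean of 5.18 to 5.36 in CCR2-positive and 5.14 to 5.16 in CCR2-negative pools. Only 4 of the 11 neutrophil and 3 of the 10 resident macrophage markers reached the median level of all genes. All 9 measured erythroid markers were higher, with a mean of 8.82 to 9.38 in CCR2-positive and 8.16 to 8.66 in CCR2-negative pools, Aqp1 by 0.78 ± 0.15.

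Ctss shared its highest and its lowest pool with the list means of granulocyte-monocyte progenitor, monocyte, neutrophil and erythroid markers and of the granule serine proteases. Ctsg, Elane and Prtn3 were in both the progenitor and the granule serine protease list, so these lists were not separate. CCR2-positive replicate 2 held the highest value of 18.3% of all genes and of 28.8% of the brightest genes defined above. CCR2-negative replicate 1 held the lowest value of 17.9% of all genes and of 14.8% of those brightest genes. Nothing is therefore read from the number of lists. The mean of the 5 progenitor markers was 7.39, 8.62 and 7.15 in CCR2-positive pools, against 7.12, 8.26 and 7.86 in CCR2-negative pools. It was highest in CCR2-positive replicate 2 and lowest in CCR2-negative replicate 1, and the groups overlapped. Ctsc was also highest in CCR2-positive replicate 2, but it was second highest in CCR2-negative replicate 1. The 5 markers had a median difference of -0.06, with Ctsg at 0.22 ± 0.55 and Prtn3 at -0.19 ± 0.19. That median rested on single pools: it was -0.42 without CCR2-positive replicate 2, -0.24 without CCR2-negative replicate 1 and from 0.09 to 0.29 without any other pool. The part of these lists in the spread of Ctss was not tested.

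**Figure D4:**
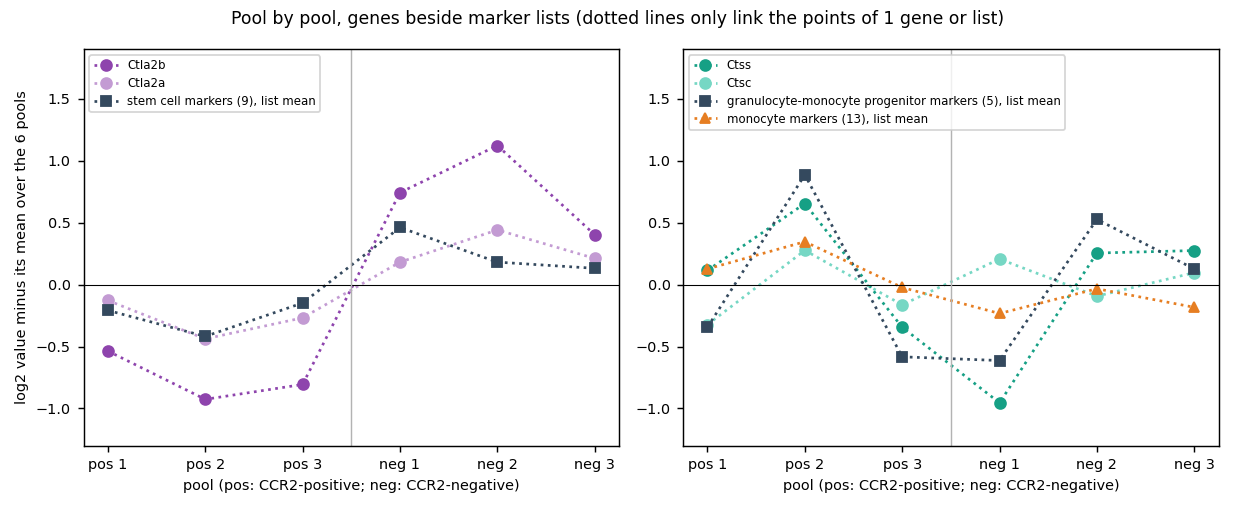
Log2 value minus its mean over the 6 pools (vertical axes) in each pool, CCR2-positive pools left of the grey line, for Ctla2b and Ctla2a beside the mean of 9 stem cell markers (left) and for Ctss and Ctsc beside the means of 5 granulocyte-monocyte progenitor and 13 monocyte markers (right). Ctla2b and Ctla2a divide by group, while Ctss is highest in CCR2-positive replicate 2 and lowest in CCR2-negative replicate 1.

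In the lists of the remaining cell types single markers differed in both directions. Dendritic cell markers were higher in 3 of 6 cases, with a median of 0.00, B cell markers in 5 of 7 (median 0.10) and T and NK cell markers in 6 of 8 (median 0.08), with Lat at -0.48 ± 0.19. Only 2 of the 7 B cell and 1 of the 8 T and NK cell markers reached the median level. Dim genes were more often higher over all genes, so nothing is read from these counts. Megakaryocyte markers were higher in 3 of 6 cases, with a median of -0.02, which ran from -0.13 to 0.14 when single pools were dropped. Among them Selp differed by -0.66 ± 0.13 and Gp9 by -0.52 ± 0.20, both with groups apart, and Ppbp by 0.80 ± 0.36. Basophil and mast cell markers were higher in 4 of 5 (median 0.27), with a mean of 4.92 to 6.25 in CCR2-positive and 5.26 to 5.51 in CCR2-negative pools. Mcpt8, given above, is one of them. Dropping CCR2-positive replicate 1, 2 or 3 gave medians of 0.57, 0.09 and 0.04, and dropping CCR2-negative replicate 2 or 3 gave 0.43 and 0.06. It was 1.11 among the 2 members at or above the median level, Mcpt8 and Prss34, whose groups both overlapped. With all pools, none of the marker genes passed the adjusted threshold of limma.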

How the data were processed

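Arrays were hybridised with amplified RNA from 3 CCR2-positive and 3 CCR2-negative pools. The authors deposited log2 values for 41345 probe sets, which come from RMA per the submitters' processing notes; the sources used here give no version or settings for it, no detection calls and no raw intensities. The number of arrays limits the precision, with a median standard error of 0.127 per difference. RMA makes levels relative to the other genes of an array.

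The platform annotation supplied gene names (23521 probe sets with 1 gene, 1814 with several, 16010 with none). The probe set with the highest mean was kept, which left 22180 genes, and 10 of 10 members were matched to RefSeq of GRCm38.p6. Groups were compared with limma 3.58.1 in R 4.3.3 (lmFit, eBayes), with Benjamini-Hochberg adjustment over all genes, a threshold of 0.05 and no covariate; the fit was also tested on simulated data. Whether same-numbered pools share mice, and whether pools are independent beyond the design's statement, is not given. The members and lists were chosen with earlier results of these data known. The text names Ccr2, all members and up to 3 genes of each list with the smallest unadjusted p. It also names the 4 nearest profiles of Ctla2b, Ctla2a and Ctss (predicted genes, clones and small RNAs left out). Kit, Cd74, Ctsk, H2-Ob, Elane, Gca and the genes beside the Ctla2 pair were added outside this rule, after values were seen. Motifs and promoter alignments used pandas 2.3.3 and Biopython 1.88. Alternatives were 6 single pools left out, a replicate block, 2 filters on dim genes, a second quantile normalization, median centring, cyclic loess, averaging the probe sets of a gene, trend and robust eBayes, array weights, all probe sets and other thresholds. No background correction could be varied on summarised values.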

Additional observations from a re-analysis of the deposited data

How the results depend on the processing

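The count of genes past an adjusted p of 0.05 was 0 with all pools, and from 0 to 2 with 1 pool left out. The 2 genes, Mcpt8 and Gca (difference -1.55), passed without CCR2-positive replicate 1 and were named after their values were seen. For Mcpt8 the pool left out was the CCR2-positive pool inside the CCR2-negative range. The count was 318 at an adjusted p of 0.2 and 2716 at an unadjusted p of 0.05, and it was 0 under the other alternatives. The number of the 10 genes lower in CCR2-positive pools was 7 with all pools, 7 to 8 with 1 left out, and 7 under each scaling, filter and fit. Of 149 recomputed differences of the 10 genes, 148 kept their direction. The exception was Ctss, at -0.12 without CCR2-negative replicate 1, and up to 0.53 without CCR2-positive replicate 3. The 148 moved by less than the SD within groups, but leaving out 1 of 3 pools cannot move a difference by more. The replicate block, the filters and the trend and robust fit leave differences unchanged by construction, so nothing is read from that count. Sizes did change: Cstb was -0.15 in the main fit and -0.003 with array weights. Ctsc ran from -0.31 to -0.01 with 1 pool left out. Of 284 recomputed list medians 15 moved by more than the SD of the list mean within groups, 8 of them with a filter on dim genes, which leaves fewer members.

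Same-numbered pools were not paired by the labels. Their deviations from the group means correlated across genes at r = 0.0348, 0.0892 and 0.0447. Pools with unlike numbers gave r from -0.102 to 0.0678. The same-numbered CCR2-negative pool was the best match for CCR2-positive replicates 1 and 2. CCR2-positive replicate 3 correlated better with CCR2-negative replicate 1 (r = 0.0678). With the replicate block 0 genes were called (smallest adjusted p = 0.0618), and 7 of the 10 genes were lower. Without detection calls, signal over background is unknown, which limits what can be said of Ctsh and of the dim cystatins and placental cathepsins.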
